A study of Mus musculus with 6 samples.

Results

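GC-2 spd(ts) is an immortalised mouse line that the labels trace to spermatocytes, the meiotic cells of the male germ line. Its genes of chemokines, interleukins and their receptors are described here in cells given 120 µM bisphenol A (BPA), a monomer of polycarbonate plastic, for 48 h in medium with 10% fetal bovine serum, against cells given that medium with 0.1% dimethyl sulfoxide (DMSO), the control. Both had first been kept for 12 h without serum, and BPA was itself added from a DMSO solution. Each condition had 1 mRNA library and 1 library of circular RNA (circRNA), so no difference given here has a replicate check and no p-value was computed. Genes were taken by symbol: chemokine ligands and receptors of the Ccl, Cxcl, Cx3cl, Ccr and Cxcr series, and every symbol starting with Il and a digit. The mRNA table of 22127 genes held 67 of them, of which 49 had at least 10 normalised counts (reads scaled between the libraries by the authors) in both libraries together. The other 18 are given at their place below. The GENCODE M21 annotation holds 141 symbols of these series, and those outside the table were not analysed here. The table lists no gene at 0 in both libraries, so it does not count silent genes. Of the 67, 7 were at 0 in the BPA library only and 10 in the control library only. Just inside the filter was Il6 with 14.7 normalised counts, and just outside it Il17c with 9.85.

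Chemokines are small secreted proteins that draw cells along a gradient through G protein-coupled receptors on the cell surface. Interleukins act through paired receptor chains: cytokines of the IL-6, IL-10, IL-12 and common gamma chain families signal through JAK kinases and STAT factors, whereas the IL-1 and IL-17 families recruit adaptors that lead to NF-κB. In the testis, Cxcl12 made by Sertoli cells guides spermatogonial stem cells that carry its receptor Cxcr4, and cytokines of macrophages and Sertoli cells act on the barrier around the germ cells.

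The mRNA libraries held 33071378 reads with BPA and 32312872 reads in control. A count of 0 allows up to 0.0907 CPM with BPA and 0.0928 CPM in control, and this limit and all intervals below cover counting error only, because PCR copies of a molecule cannot be told from separate molecules without molecular identifiers. Defining markers of germ cells and meiosis were at or near 0, so the labelled cell type is not seen in them: Ddx4 had 9 reads with BPA and 0 in control, and Sycp3 had 0 and 6. Of 18 listed, 6 were in the table, with 126 reads in all with BPA and 72 in control, and 2 passed the filter, Piwil2 and the stem cell gene Gfra1, which alone had 104 and 52. Of 14 fibroblast and mesenchymal markers listed, 10 passed the filter, and their levels differed widely. Col1a1 had 39365 reads with BPA and 79234 in control, and Col3a1 had 65 and 80. All 10 had log2 ratios of BPA over control below 0, with a median of -0.91. Under the filter, Dcn had 8 reads with BPA and 0 in control, and Fap 4 and 0. Single markers of other somatic types also had many reads. Gata4 of Sertoli cells had 1795 and 1959, Nr5a1 of Leydig cells 2242 and 1731, and Krt14 of epithelium 846 and 795. Others of the same lists had few: Amh of Sertoli cells 33 and 10, Star of Leydig cells 90 and 69, and Krt8 of epithelium 22 and 37. In the table were 8 of 12 genes listed for Sertoli cells, 3 of 7 for Leydig cells and 5 of 9 for epithelium. These lists therefore do not name a cell type. Of 21 leukocyte markers, 14 were in the table and 7 passed the filter. The 14 summed to 540 reads with BPA and 350 in control, mostly of Cd14 and Cd68, and the pan-leukocyte gene Ptprc had 0 and 3 reads. Of the 7 past the filter, 5 had ratios above 0, with a median of 0.57. Cd74, the only one at least 2-fold higher, had 22 reads with BPA and 2 in control, and Kit, the only one at least 2-fold lower, had 3 and 7. Of the other markers past the filter, 4 of 10 for fibroblasts were at least 2-fold lower and 0 higher, and 2 of 8 for Sertoli cells were higher and 1 lower. For endothelium 1 of 4 was higher, for epithelium 1 of 4 was lower, and both for Leydig cells were within 2-fold. The shares over all genes were 6.62% higher and 4.65% lower. The part of these marker shifts in the values below was not tested. In bulk RNA, fewer cells of a type and less RNA per cell cannot be told apart.

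The stretch of DNA before the transcription start carries part of the regulatory sequence of these genes, and 36 of the 49 genes had such a sequence in RefSeq (build GRCm38.p6). Windows of selected genes are shown here for the 250 bases before each start. Capitals mark matches, on either strand, to the NF-κB motif, to AP-1 (TGANTCA) or to the motif of interferon regulatory factors. The first is Ccl20, on the plus strand of chromosome 1, at chr1:83116516-83116765, a gene higher with BPA.
Ccl20: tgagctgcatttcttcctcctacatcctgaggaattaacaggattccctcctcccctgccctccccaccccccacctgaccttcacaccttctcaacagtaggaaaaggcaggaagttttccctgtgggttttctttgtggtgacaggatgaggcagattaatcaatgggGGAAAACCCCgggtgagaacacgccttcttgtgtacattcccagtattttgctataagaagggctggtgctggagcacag
The next is Il1rn, on the plus strand at chr2:24336610-24336859, also higher with BPA. It is the most upstream of 3 starts listed for this gene. The windows of the other starts, at chr2:24345041-24345290 and chr2:24345121-24345370, held no match.
Il1rn: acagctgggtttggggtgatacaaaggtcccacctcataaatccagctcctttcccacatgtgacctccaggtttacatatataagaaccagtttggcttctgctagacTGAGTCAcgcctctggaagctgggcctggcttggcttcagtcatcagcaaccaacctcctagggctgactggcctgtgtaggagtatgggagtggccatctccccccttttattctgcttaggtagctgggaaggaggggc
Ccl9, on the minus strand at chr11:83578637-83578886, was lower with BPA.
Ccl9: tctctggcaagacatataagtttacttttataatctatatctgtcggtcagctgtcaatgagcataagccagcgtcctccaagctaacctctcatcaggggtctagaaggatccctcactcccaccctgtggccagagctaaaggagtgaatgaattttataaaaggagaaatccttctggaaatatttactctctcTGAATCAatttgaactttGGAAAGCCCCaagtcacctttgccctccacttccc
Il1rl1, the lower gene with most reads among the interleukin receptors, has 2 listed starts on the plus strand, at chr1:40429320-40429569 and chr1:40439379-40439628.
Il1rl1 upstream start: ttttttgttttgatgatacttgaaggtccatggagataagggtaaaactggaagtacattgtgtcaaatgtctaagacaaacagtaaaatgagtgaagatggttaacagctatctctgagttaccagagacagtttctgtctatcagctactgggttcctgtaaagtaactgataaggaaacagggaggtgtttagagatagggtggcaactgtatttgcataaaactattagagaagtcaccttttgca
Il1rl1 downstream start: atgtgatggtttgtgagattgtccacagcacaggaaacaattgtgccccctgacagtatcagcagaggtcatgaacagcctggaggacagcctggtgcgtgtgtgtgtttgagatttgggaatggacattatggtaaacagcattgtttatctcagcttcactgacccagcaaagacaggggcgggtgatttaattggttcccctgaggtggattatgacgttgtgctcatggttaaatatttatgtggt
Cxcl10, on the minus strand at chr5:92348890-92349139, and Cxcl1, on the plus strand at chr5:90890995-90891244, stayed within 2-fold. Both were chosen after their values were seen.
Cxcl10: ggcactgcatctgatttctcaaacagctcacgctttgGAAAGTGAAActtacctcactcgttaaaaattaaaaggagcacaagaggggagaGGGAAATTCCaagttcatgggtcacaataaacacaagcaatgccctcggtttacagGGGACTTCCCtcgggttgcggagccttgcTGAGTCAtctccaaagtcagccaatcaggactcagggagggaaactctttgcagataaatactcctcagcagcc
Cxcl1: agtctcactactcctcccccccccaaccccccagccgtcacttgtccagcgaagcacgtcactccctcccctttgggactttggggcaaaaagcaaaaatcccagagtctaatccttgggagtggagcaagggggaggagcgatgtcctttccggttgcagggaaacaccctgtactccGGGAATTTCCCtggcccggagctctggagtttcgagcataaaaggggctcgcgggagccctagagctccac

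The NF-κB motif stood in the windows of Ccl20, Ccl9, Il6, Cxcl1, Cxcl10, Il1r1 and Il16, 7 of the 36 genes, and in 3.90% of all 32851 windows of the same length. These 7 genes lay on both sides of equality, from Ccl20, higher with BPA, to Ccl9, lower with BPA. AP-1 stood in windows of 9 of the 36 genes and in 6.75% of all windows, and the interferon regulatory factor motif in those of 2 genes, Cxcl10 and Il4, and in 2.98% of all. The motif of C/EBP and ATF factors, TGATGNAA, was matched for 2 genes, Ccl27a and Il20rb, against 3.45% of all windows. The STAT motif TTCNNNGAA was matched in the window of none of the 36 genes, against 7.02% of all windows. Genes with several starts count when any window matches. The 36 genes had 50 windows, so a count of genes and a share of windows are unlike measures, and the former can come out higher. In Cxcl1 and Il16 the NF-κB matches of the 2 strands overlap by all but 1 base. Of the 11 genes with a window that were at least 2-fold in either direction, 3 matched NF-κB and 4 AP-1. Among these 11, Il17f, Il18rap, Il11ra2, Il23r and Il3ra, not shown above, matched no motif, like Il1rl1. Il6 and Il15ra, which held matches, are not shown either. A match is a run of letters and was not tested for binding.

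Ratios are BPA over control on the log2 scale of normalised counts plus 1, and each 95% interval is an exact conditional binomial interval of the reads. Of the 49 genes, 5 were at least 2-fold higher with BPA, where 6.62% of all 16747 genes past the same filter were, and 8 were at least 2-fold lower, where 4.65% of all genes were. In either direction this made 13 genes, against 11.3% of all. The interval lay wholly on 1 side of equality for 4 of the 5 higher genes and all 8 lower ones, against 5.25% and 3.53% of all genes that were 2-fold with such an interval. Scaling the libraries by their total reads gave 6 higher and 5 lower in place of 5 and 8, since Ccl5 passed 2-fold, and Ccl7, Il15ra and Il18rap no longer did. The median ratio of the 49 genes was -0.08, and 22 were above 0 and 27 below, beside a median of 0.01 over all genes. An interval that leaves out equality is common here, at 28 of the 49 genes and 54.8% of all genes.

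The higher genes had few reads. Among the 34 genes with at least 50 normalised counts, 0 were at least 2-fold higher, where 3.22% of all genes at that level were, and 6 were at least 2-fold lower, where 2.06% were, so 6 passed 2-fold in either direction against 5.28% of all. The higher genes, Ccl20, Il1rn, Il17f, Il6 and Il3ra, had between 12 and 36 reads with BPA and between 0 and 14 in control. The lower genes with at least 50 normalised counts were Ccl7, Il1rl1, Il15ra, Il18rap, Il24 and Ccl9, and those under it Il11ra2 and Il23r. The value of Il11ra2 is uncertain, because its reads can be assigned to Il11ra1, as described below. Near the 2-fold line were Ccl7 and Il18rap, both at -1.02, just inside it and Ccl5 at 0.99 just outside.

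**Figure D1:**
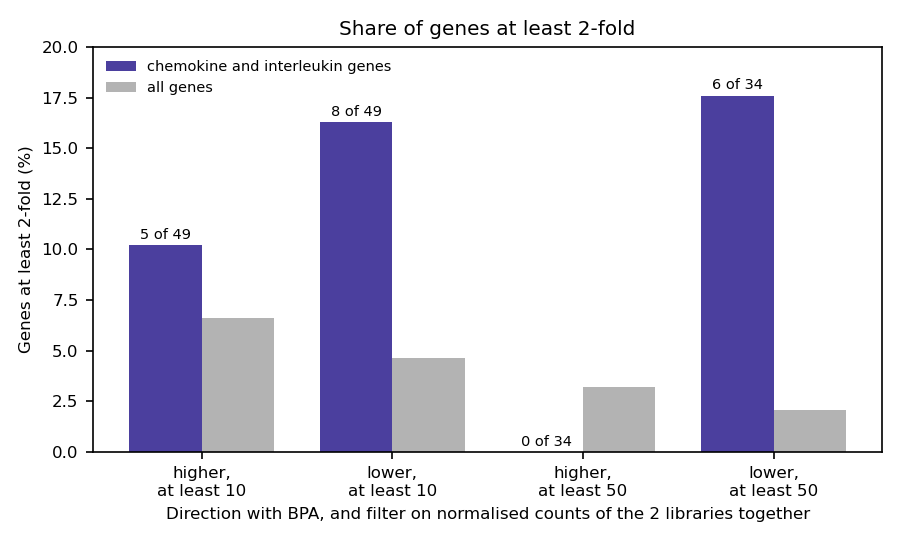
Share of genes at least 2-fold higher or lower with BPA (y axis, %), for the chemokine and interleukin genes (purple, with their counts) and for all genes (grey), under filters of 10 and 50 normalised counts together. At 50 counts 0 of 34 of these genes were 2-fold higher and 6 of 34 2-fold lower, beside 3.22% and 2.06% of all genes.

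**Figure D2:**
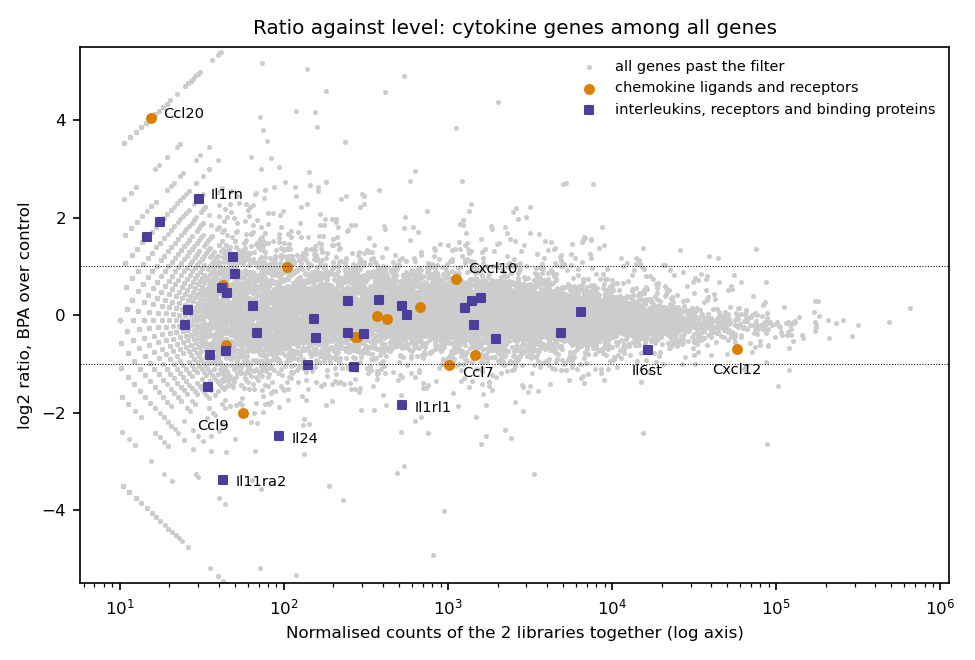
Log2 ratio of BPA over control (y axis) against the normalised counts of both libraries together (log x axis) for all genes past the filter (grey), chemokine ligands and receptors (orange circles) and interleukins, their receptors and binding proteins (purple squares). The y axis stops at 5.5 on either side, which leaves 25 other genes outside; Ccl20 and Il1rn lie at the left, high edge and Il1rl1, Il24, Ccl9 and Il11ra2 below the lower dotted 2-fold line.

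Of the chemokine ligands, Cxcl12, which attracts cells that carry Cxcr4, far exceeded the rest. It had 22856 reads with BPA and 34295 in control (chromosome 6, 117168535 to 117181367), a ratio of -0.70 (interval -0.72 to -0.67). It made up 89.3% of the reads of all ligand genes with BPA and 91.9% in control. Per kilobase of exon, Cxcl12 stood at 2689 normalised counts with BPA and 4360.0 in control, and the next ligands were Ccl2 at 465 with BPA and 818 in control, Ccl7 at 419 and 849, and Cxcl10 at 309 and 184. The order of the leading ligands was therefore Cxcl12, Ccl2, Ccl7 and Cxcl10 with BPA, and Ccl7 stood just above Ccl2 in control.

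Ccl2 and Ccl7 draw monocytes through the receptor Ccr2 and lie side by side on chromosome 11 (82035571 to 82037453 and 82045712 to 82047525). Ccl2 had 550 reads with BPA and 896 in control, a ratio of -0.81 (-0.97 to -0.66). Ccl7 had 349 and 654 reads, a ratio of -1.02 (-1.21 to -0.83). Both were lower with BPA by similar amounts, and their intervals overlap. Ccl8, a neighbour in the same stretch, had 0 reads with BPA and 2 in control.

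A second stretch of chromosome 11 holds Ccl5, Ccl9 and Ccl6, which lay in different directions. Ccl9, a chemokine of the mouse that acts through Ccr1 (83572919 to 83578636), had 11 reads with BPA and 44 in control, a ratio of -2.01 (-3.21 to -1.14). Ccl5, also called RANTES, which draws T cells (83525778 to 83530518), had 72 reads with BPA and 33 in control and was at 0.99 (0.40 to 1.65). Ccl6 had 6 reads with BPA and 0 in control, under the filter. The CC ligands summed over all 10 genes had 1500 reads with BPA and 2085 in control, a ratio of -0.59 (-0.68 to -0.49), of which Ccl2 and Ccl7 held 899 and 1550.

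Ccl20, the ligand of Ccr6, which draws dendritic cells and T helper cells that make Il17 (chromosome 1, 83116766 to 83119167), had 16 reads with BPA and 0 in control. With 3 counts in place of 0 it was 4.94-fold higher, taking the 16 reads as exact. The counting interval, which also covers the error of the 16 reads, began lower, at 1.84 on the log2 scale. Ccl20 was the only ligand past the filter that was at 0 in a library. Ccl28, a mucosal chemokine under the filter, had 9 reads with BPA and 0 in control.

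Cxcl10, an interferon-induced ligand of Cxcr3, was higher with BPA. It had 724 reads with BPA and 399 in control (chromosome 5, 92346638 to 92348889), a ratio of 0.75 (0.57 to 0.93). Cxcl1, which draws neutrophils through Cxcr2, had 216 and 211 reads, a ratio of -0.08 (-0.36 to 0.20), an interval that holds equality. Cxcl1 and Cxcl10 share the NF-κB motif in the windows shown above. Of these genes, only Cxcl10 carries the AP-1 and interferon regulatory factor motifs as well. Both genes were chosen for display after their values were seen, and a link of any motif to their ratios was not tested. The CXC ligands other than Cxcl12 summed to 1063 reads with BPA and 768 in control, a ratio of 0.36 (0.22 to 0.49). Cxcl13, which draws B cells, had 0 and 3 reads.

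The membrane-bound ligands were within 2-fold. Cx3cl1, or fractalkine, had 189 reads with BPA and 178 in control, a ratio of -0.02 (-0.33 to 0.28), and Cxcl16, the ligand of Cxcr6, had 123 and 155 reads and -0.44 (-0.80 to -0.09). The remaining CC ligands were Ccl25, which draws thymocytes through Ccr9, with 369 and 306 reads and 0.16 (-0.06 to 0.38), and Ccl27a, a skin chemokine, with 118 and 150 reads and -0.45 (-0.82 to -0.10). Ccl27a shares 8 exon bases with Il11ra1 on the opposite strand, Cxcl16 shares 552 with Zmynd15, which had 23 and 18 reads, and Ccl25 shares 204 with the abundant Elavl1, which had 5066 and 5116 reads. Per the labels the mRNA libraries kept strand; the strand setting of the counting was not stated.

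Chemokine receptors were scarce. All 6 in the table summed to 62 reads with BPA and 47 in control, an interval of -0.28 to 0.87. Cxcr4, the receptor of the abundant Cxcl12, had 18 and 26 reads, a ratio of -0.61 (-1.60 to 0.28), and Ccr10, the receptor of Ccl27a and Ccl28, had 27 and 16 and a ratio of 0.61 (-0.30 to 1.63). No difference of either was detectable at this depth. Under the filter, Ccr7 and Cxcr6 had 7 reads each with BPA and 0 in control, Ccr9 had 3 and 0, and Cxcr5 had 0 and 5.

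**Figure D3:**
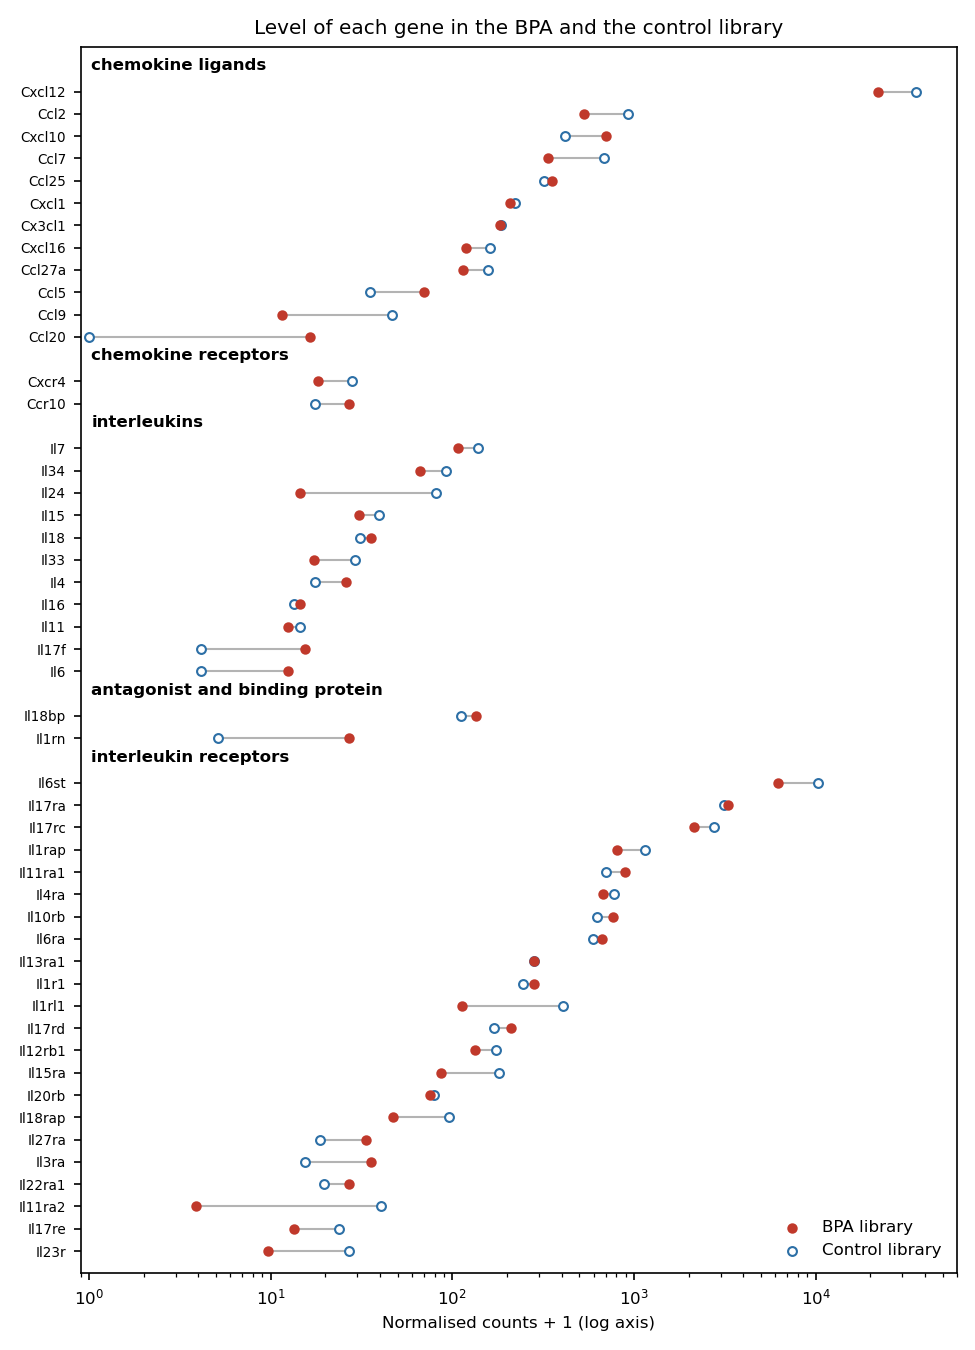
Normalised counts plus 1 (log x axis) of the 49 genes past the filter in the BPA library (filled red) and the control library (open blue), grouped by role and ordered by level. Cxcl12 and Il6st lead their groups, Cxcr4 and Ccr10 sit near the low end, and the long links mark Ccl20, Ccl9, Il24, Il1rn, Il1rl1 and Il11ra2.

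The IL-1 family holds the receptor Il1rl1, also called ST2, which binds the alarmin encoded by Il33 and also exists as a secreted decoy. It had 117 reads with BPA and 393 in control (chromosome 1, 40429570 to 40465415), a ratio of -1.85 (-2.17 to -1.56). The table does not separate transcripts from the 2 starts shown above. Its partner chain Il1rap, shared with the IL-1 receptor, had 842 and 1101 reads and -0.50 (-0.63 to -0.37). The ligand Il33 had 17 and 27 reads and -0.74, with an interval of -1.75 to 0.15 that holds equality. All 3 parts of this ligand and receptor set had fewer reads with BPA, and the receptor chain differed most.

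Neighbours of Il1rl1 on chromosome 1 differed in their ratios. Il18rap, the accessory chain of the IL-18 receptor (40515362 to 40551705), had 48 reads with BPA and 91 in control and a ratio of -1.02 (-1.57 to -0.51). Il1r1, the signalling receptor of IL-1 (40225080 to 40317257), had 290 and 236 reads and 0.18 (-0.07 to 0.44). Il1rl2, which lies between Il1r1 and Il1rl1, had 3 reads with BPA and 0 in control. Il1rl1 and Il18rap were thus at least 2-fold lower, with intervals that just overlap, and for Il1r1 no difference was detectable.

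Of the inhibitors of the family, Il1rn was higher with BPA. It encodes the antagonist that occupies Il1r1 without signalling (chromosome 2, 24336853 to 24351494), and it had 27 reads with BPA and 4 in control, a ratio of 2.39 (1.12 to 4.62). Il18bp, the secreted protein that neutralises IL-18, had 140 and 106 reads and 0.29, with an interval of -0.08 to 0.67 that holds equality. Il18bp shares 80 exon bases with the abundant Numa1 on the opposite strand. The cytokine Il18 itself had 36 and 29 reads and 0.19 (-0.55 to 0.96).

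Il24, a cytokine of the IL-10 family, was lower with BPA. It had 14 reads with BPA and 77 in control (chromosome 1, 130882074 to 130887454), a ratio of -2.49 (-3.51 to -1.74). Its receptor chain Il20rb had 77 reads with BPA and 75 in control, a ratio of -0.07 (-0.55 to 0.40). Il22ra1, which can join Il20rb, had 27 and 18 reads, a ratio of 0.45 (-0.44 to 1.42). Il10rb, the chain shared by receptors of IL-10, IL-22 and lambda interferons, had 801 reads with BPA and 605 in control and 0.29 (0.14 to 0.45), and it shares 569 exon bases on its own strand with Gm21970. Il19, a neighbour of Il24, had 6 reads with BPA and 0 in control. The ligand was over 2-fold lower, and Il20rb and Il22ra1 were within 2-fold; the alternative chain Il20ra was not analysed here.

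Most receptors of the gp130 family signal through the shared chain Il6st, the receptor with most reads in the set. Il6st had 6472 reads with BPA and 9872 in control (chromosome 13, 112464070 to 112510086), a ratio of -0.72 (-0.77 to -0.68). The specific chain of the IL-6 receptor, Il6ra, had 690 and 575 reads and 0.15 (-0.01 to 0.31). The cytokine Il6 had 12 reads with BPA and 3 in control and a ratio of 1.61, with an interval of -0.001 to 4.35 that just reaches equality. Il11 had 12 and 13 reads, and its interval of -1.49 to 1.02 was wide. Il27ra, a receptor chain for IL-27, had 34 and 17 reads and 0.85 (0.01 to 1.82). Il31ra, grouped here although it does not pair with Il6st, had 0 and 3 reads.

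Il11ra1 and Il11ra2 are near-identical mouse genes of the IL-11 receptor, and reads of either can be assigned to the other. Il11ra2 had 3 reads with BPA and 38 in control (chromosome 4, 42656355 to 42661893), a ratio of -3.38 (-6.11 to -2.12), and Il11ra1 had 927 and 670 reads and 0.36 (0.21 to 0.50). Summed, the 2 genes had 930 reads with BPA and 708 in control, a ratio of 0.28 (0.14 to 0.42). The lower value of Il11ra2 is uncertain for that reason, and the sum was within 2-fold.

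The IL-17 family was led by its receptors. Il17ra, the chain that all IL-17 receptors share, had 3417 reads with BPA and 3026 in control and a ratio of 0.06 (-0.01 to 0.13). Il17rc, its partner for the ligands IL-17A and IL-17F, had 2220 and 2659 reads and -0.37 (-0.45 to -0.29). Per kilobase of all annotated exons, Il17rc stood at 800 normalised counts with BPA and 1035 in control, ahead of Il6st at 561 and 925. On this measure Il17rc was first of the interleukin receptors in both libraries, although Il6st had more reads. The merged exons total 2.67 kb in Il17rc and 11.1 kb in Il6st, and the transcripts expressed were not determined. Il17rd, also known as an inhibitor of fibroblast growth factor signalling, had 219 and 162 reads and 0.32 (0.02 to 0.63), and Il17re, the chain for IL-17C, had 13 and 22 reads. The ligand Il17f had 15 reads with BPA and 3 in control (chromosome 1, 20777146 to 20790617), a ratio of 1.91 (0.39 to 4.64). Under the filter, Il17c had 7 and 3 reads and Il17d 5 and 3.

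Among the lymphocyte cytokine families, Il15ra, which holds IL-15 on the cell surface for neighbouring cells, was lower with BPA. It had 89 reads with BPA and 174 in control (chromosome 2, 11705290 to 11734317), a ratio of -1.07 (-1.46 to -0.70). Its ligand Il15 had 31 and 37 reads and -0.36 (-1.10 to 0.36), and Il7, a survival factor of lymphocytes, had 111 and 132 reads and -0.36 (-0.74 to 0.01). Il4ra and Il13ra1 together form a receptor for IL-4 and IL-13. Il4ra had 698 reads with BPA and 742 in control, a ratio of -0.20 (-0.35 to -0.05). Il13ra1 had 292 and 269 reads, a ratio of 0.01 (-0.24 to 0.25). Il4 had 26 reads with BPA and 16 in control. The common gamma chain Il2rg had 0 and 5 reads, Il2rb 3 and 0, and Il9r 0 and 6.

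Il23r, the specific chain of the IL-23 receptor, had 9 reads with BPA and 25 in control (chromosome 6, 67422932 to 67491855), a ratio of -1.48 (-2.87 to -0.44). Its partner Il12rb1 had 137 and 167 reads and -0.39 (-0.73 to -0.06), and the cytokine subunit Il23a had 0 and 5. Il3ra, the alpha chain of the IL-3 receptor (chromosome 14, 14346275 to 14356011), had 36 reads with BPA and 14 in control, a ratio of 1.20 (0.33 to 2.26). Il34, a ligand of the macrophage receptor Csf1r, had 68 and 88 reads and -0.48 (-0.96 to -0.01), while Csf1r itself had 5 and 7. Il16, a ligand of Cd4, had 14 and 12 reads and shares 1202 exon bases on the opposite strand with Stard5, which had 1491 and 385. The oxidase gene Il4i1, which matches the symbols without being a cytokine, had 3 and 0 reads.

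**Figure D4:**
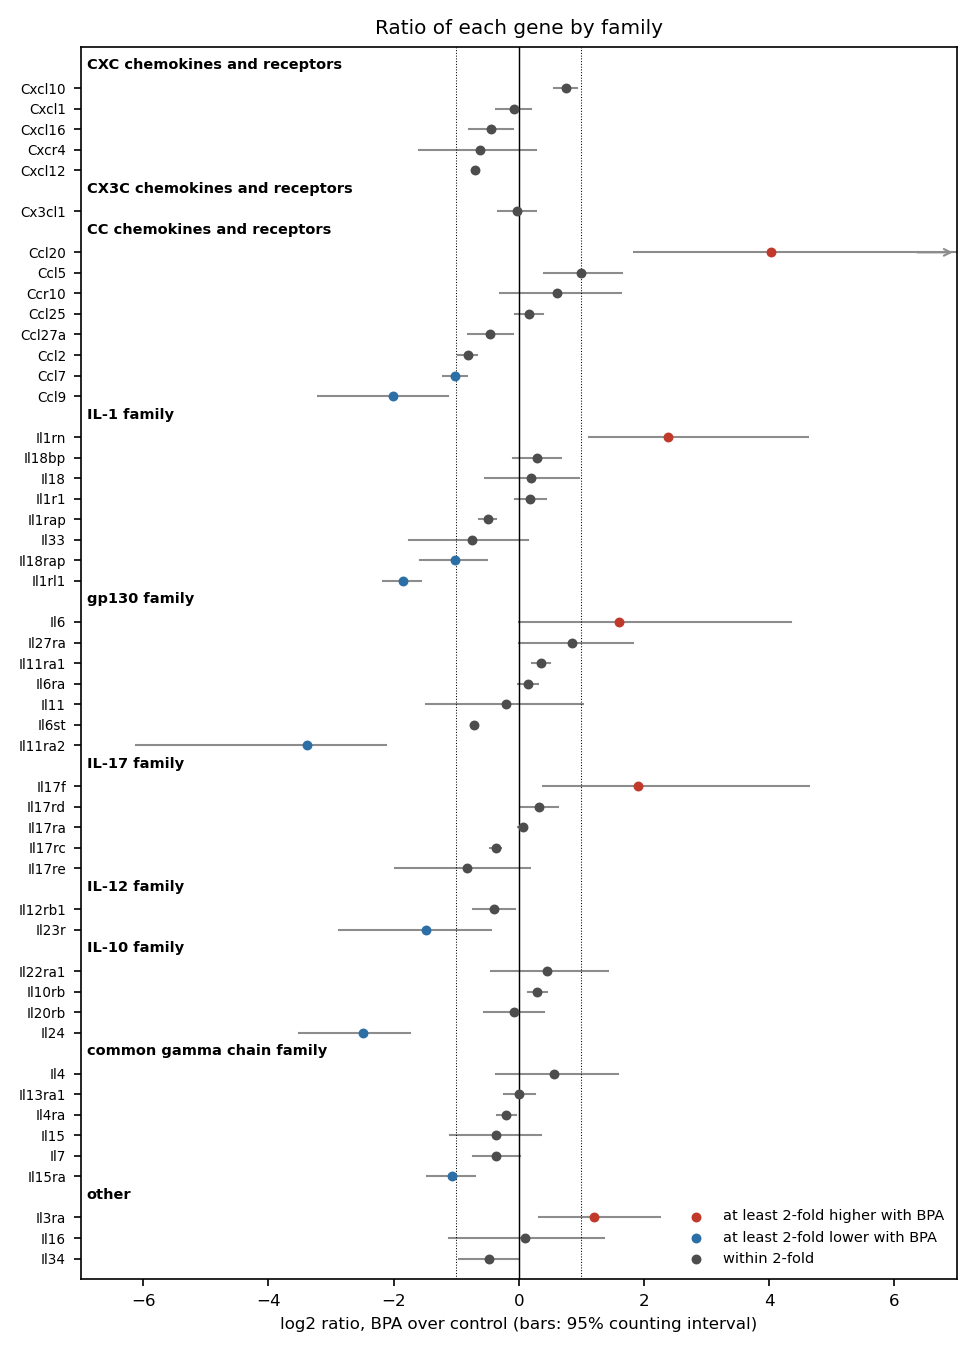
Log2 ratio of BPA over control (x axis) with its 95% counting interval (bars) for the 49 genes, grouped by family; dotted lines mark 2-fold, red points genes at least 2-fold higher, blue points genes at least 2-fold lower, and an arrow an interval with no upper end. Il1rl1, at -1.85, has the narrowest interval of the 2-fold genes after Ccl7, and Ccl20, with 0 reads in control, has no upper end.

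By role, 1 of 12 ligands of the chemokine group past the filter was at least 2-fold higher (Ccl20) and 2 lower (Ccl7 and Ccl9), with a median of -0.26. Of 11 interleukins, 2 were higher (Il17f and Il6) and 1 lower (Il24), with a median of -0.21. Of 22 interleukin receptors, 1 was higher (Il3ra) and 5 lower (Il1rl1, Il15ra, Il18rap, Il11ra2 and Il23r), with a median of -0.14. Of these 5, Il11ra2 is uncertain for the reason given above, and Il15ra and Il18rap fell just short of 2-fold under scaling by total reads. Of the 2 inhibitors, 1 was higher (Il1rn), and Il18bp stayed within 2-fold, as did both chemokine receptors. These counts stand beside 6.62% higher and 4.65% lower over all genes.

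Among the signalling genes downstream, those at least 2-fold in either direction stand beside 11.3% of all genes. Of 17 adaptors of IL-1 and IL-17 receptors, 2 (Irak2 and Irak3) passed 2-fold, both higher, beside 6.62% of all genes, and the median was 0.24. Irak2, a kinase adaptor of IL-1 receptors, had 678 reads with BPA and 310 in control and a ratio of 1.02 (0.82 to 1.22). Irak3, an inhibitor of the same complex, had 19 and 7 reads. Tab2, Map3k7 and Tollip, the adaptors with most reads, were at 0.27, 0.33 and 0.24.

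Of 15 NF-κB factors and regulators, 0 were 2-fold higher and 1 lower, with a median of -0.11. Tnfaip3, the feedback inhibitor A20, had 1037 reads with BPA and 2174 in control, a ratio of -1.18 (-1.29 to -1.07). Chosen after their values were seen, as those just under 2-fold, were the inhibitor IκBα, Nfkbia, with 729 and 1337 reads and -0.99 (-1.12 to -0.86), and the kinase subunit Ikbkg, with 2373 and 1117 reads and 0.97 (0.87 to 1.08). The factors Nfkb2, Rela and Nfkb1 were at -0.05, 0.16 and -0.11. The list had 6 ratios above 0 and 9 below, and its large ratios lay in both directions.

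Of 25 JAK, STAT and SOCS genes, 0 were 2-fold higher and 1 lower, with a median of 0.06. Socs1, a feedback inhibitor of JAK kinases, had 68 reads with BPA and 135 in control and a ratio of -1.09. The abundant Ptpn11, Jak1 and Jak2 were at 0.10, -0.01 and -0.28. Of 10 genes of chemokine receptor G protein signalling, 1 was lower, Arrb1, an arrestin that ends signalling of such receptors, with 117 reads with BPA and 493 in control and a ratio of -2.18. Gnb1, Gnai2 and Gnai3 were at -0.13, -0.28 and -0.17, and the list median was -0.18.

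Other chemokine and cytokine genes outside the named series were mostly within 2-fold, as were 14861 of all 16747 genes past the filter. Of the other chemokine-system genes, 3 passed the filter. Of these, 2 were at least 2-fold lower and 0 higher, beside 4.65% and 6.62% of all genes. Ackr3, a scavenger receptor of Cxcl12, had 151 reads with BPA and 166 in control and a ratio of -0.25 (-0.58 to 0.08). Ackr4 and Cx3cr1, both at least 2-fold lower, had 2 and 11 reads and 3 and 7 reads, and the interval of Cx3cr1, -3.92 to 0.80, holds equality. Under the filter, Ppbp had 9 and 0. All 10 related cytokines past the filter were within 2-fold, with a median of -0.39, among them Mif at -0.22, Csf1 at -0.51, Spp1 at 0.41 and Clcf1 at -0.51. The largest ratio among these 10, singled out after the values were seen, was that of Ctf1, with 48 reads with BPA and 87 in control, at -0.95 (-1.51 to -0.44). All 13 related receptors past the filter were within 2-fold as well, with a median of 0.16, with Ltbr at 0.29, Tnfrsf1a at 0.21, Ifngr1 at -0.17 and Ifnar1 at 0.39. The largest of these 13, singled out in the same way, was that of Csf2ra, with 192 reads with BPA and 94 in control, at 0.91 (0.56 to 1.29). Osmr, also singled out, had 890 and 581 reads and was at 0.50 (0.35 to 0.66).

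The circRNA libraries, made from other aliquots of the same RNA after removal of linear RNA, held few circles from these genes. Of 9158 circRNAs, 9 had a host gene of the set, all exonic, with 7 back-splice events with BPA and 9 in control of 17586 and 12909 events in all. Il6st hosted 4 circRNAs with 2 events with BPA and 7 in control, a ratio whose interval, scaled by the library totals, ran from -5.56 to 0.14. The circle with most events lay at 112487709 to 112490642 of chromosome 13, positions as deposited, with 1 event with BPA and 3 in control. Il6ra hosted 3 circRNAs with 4 events with BPA and 1 in control, with an interval of -1.78 to 7.18. Il15 hosted 1 with 1 and 0 events, and 1 circle with 0 and 1 was assigned to both Il10rb and Gm21970. No difference was detectable at these counts.

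In the authors' deposited table, 2 of the 67 genes had a p-value under 0.05, Il6st with 0.0399 and Cxcl12 with 0.0428, where 0.664% of all 22127 genes did. The smallest adjusted value in the authors' deposited table was 0.961. The test, made from 1 library against 1, is not named in the sources used here. Both genes were among the most deeply read of the set, and both were within 2-fold.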

How the data were processed

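GC-2 spd(ts) cells given 120 µM BPA or 0.1% dimethyl sulfoxide were compared, 1 library each. Groups came from sample titles. Per the submitters' processing notes, STAR and StringTie were named for the mRNA libraries and STAR for the circRNA libraries, with builds GRCm38 and mm10 and no versions. No source used here names the counter, the annotation release or the filters. The deposited mRNA values were log2(normalised count + 1), and the circRNA values were read as log2(back-splice count + 1). Undoing the log gave, for 100% of genes, whole numbers of reads within 0.001 when 1 read was worth 0.962 normalised counts with BPA and 1.04 in control. In circRNA, a step of 2 was taken as 1 event. The authors' deposited p-values are quoted only. Ratios used a pseudocount of 1, which understates changes of low genes, and a filter of 10 normalised counts in both libraries together. Intervals (95%, Clopper-Pearson, SciPy 1.17.1, Python 3.11.15) were of the reads without the pseudocount. They were tested on simulated reads with counting error only, which such intervals cover by design, so other variation was not checked. With 1 library per group no test was possible.

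Exon lengths, positions and overlaps came from GENCODE M21 (GRCm38), where all 67 genes matched by ID. Exon lengths merged all annotated exons of a gene, so an order per kilobase can differ from that of the expressed transcripts. Upstream windows came from RefSeq; no window was used for Ccl2, Ccl5, Ccl7, Il24, Cxcl16, Il7, Il10rb, Il12rb1, Il15, Il17ra, Il27ra, Il34 and Ccr10. Every gene past the filter was named with its reads, with ratio and interval where it was 2-fold or had 100 reads in a library. Of each signalling list, up to 4 genes were named: those 2-fold with 20 reads in the higher library, then those with most reads; Irak3, Nfkbia, Ikbkg, Ctf1, Csf2ra, Osmr and the scarce chemokine genes fall outside this rule and were named after their values were seen. Protein sequences were not used here. The genes and lists were chosen with earlier results of these data known. Alternatives were other pseudocounts, filters and scalings.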

Additional observations from a re-analysis of the deposited data

How the results depend on the processing

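With 1 library per group, no replicate could be left out, and no paired analysis was possible because each group had 1 library. With no filter, 14 of 67 genes were at least 2-fold higher with BPA and 15 lower, in place of 5 and 8 of 49; over all genes 13.5% were then higher and 10.8% lower. A filter of 50 normalised counts left 0 higher and 6 lower of 34, against 3.22% and 2.06% of all genes, because the higher genes had few reads. Scaling by total reads gave 6 higher and 5 lower, against 7.35% and 4.28% of all genes, with Ccl7 at -0.94, Il15ra at -0.99 and Il18rap at -0.94, and moved the median of all genes to 0.09. It placed the median of the 49 genes at 0.000313, against -0.08 as deposited. Scaling by the upper quartile gave 5 higher and 8 lower, against 6.34% and 4.81%. A pseudocount of 0.5 gave 6 higher and 8 lower, against 6.83% and 4.88%. A pseudocount of 5 gave 5 higher and 7 lower, against 4.74% and 3.11%, with Il18rap at -0.96. Of 140 ratios recomputed for 35 named genes, 136 stayed within their counting interval and none changed direction past 2-fold. The other 4 were Cxcl12, at -0.62 under scaling by total reads and -0.73 under the upper quartile, and Il6st at -0.64 and Il17ra at 0.14 under scaling by total reads. Each scaling shifts all ratios by nearly the same amount, so whether a ratio left its interval depended on the width of that interval. Depth limits genes with few reads, such as Il1rn, whose interval ran from 1.12 to 4.62.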
